A study of Mus musculus with 10 samples.

Results

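The genes described here are 10 that take up, store, export and sense iron in the liver: *Trf*, *Tfrc*, *Tfr2*, *Hfe*, *Hfe2*, *Fth1*, *Ftl1*, *Slc40a1*, *Cp* and *Slc11a2*. They were listed by name, and all 10 were among the 12148 genes of the count table. Of these genes, only the transferrin receptor *Tfrc* passed the test, with 1.62-fold higher mRNA in livers of mice given vesicles. That is 1 of 10, beside 7.64% of all tested genes called and 4.12% called higher, and the call was lost in 7 of 20 alternatives, among them the removal of any of 5 single livers. The 2 ferritin chains and the exporter *Slc40a1* had lower mean levels in the same livers and did not pass it. The heavy chain *Fth1* was called lower in 4 of 20 alternatives, DESeq2 and limma-voom among them, *Ftl1* in 1 and *Slc40a1* in 0.

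The animals were wild-type germ-free (GF) C57BL/6 mice, which carry no gut microbiota. One group received 80 μg of microbiota-derived extracellular vesicles (MEV) in PBS by mouth (GF+MEV, 5 livers), the other PBS alone (GF+PBS, 5 livers), with 2 doses per week for 3 weeks in both. MEV are the membrane particles shed by gut bacteria, here isolated from control mice with a normal microbiota, so the preparation was a mixture from a whole community and not from a known species. Whole liver was taken for RNA sequencing, and the age and sex of these GF mice are not given in the sources used here.

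Iron circulates bound to transferrin and enters cells when transferrin binds its receptor. Inside the cell it is stored in ferritin, a shell of heavy and light chains, and it leaves through ferroportin, the product of *Slc40a1*. The hepatocyte is the main iron store of the body and also its main sensor, because it secretes hepcidin, the hormone that has ferroportin removed from cell surfaces. Within a cell, the iron regulatory proteins bind hairpins called iron-responsive elements (IRE) when iron is scarce. In a 5′ UTR such a hairpin lets them block translation, and in the 3′ UTR of *Tfrc* it protects the mRNA from decay, so that the mRNA level itself follows this control for *Tfrc*, whereas ferritin is controlled mainly in translation.

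The hairpins of the mouse genes are shown because the genes that carry them include the receptor, both ferritin chains and the exporter. A search of the annotated UTRs (GENCODE, GRCm38) was made for an unpaired C, 5 bases, the loop CAGTGN and 5 bases pairing with the first 5, with G-T pairs allowed. In the sequences below, written 5′ to 3′ as DNA on the strand of the gene, the 6 capitals are the loop, the 5 bases on either side of it form the stem, and the C before the stem is the unpaired base.
Fth1, 5′ UTR, chr19:9982732-9982760, plus strand: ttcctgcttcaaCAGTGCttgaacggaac
Ftl1, 5′ UTR, chr7:45459779-45459807, minus strand: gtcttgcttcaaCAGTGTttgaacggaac
Slc40a1, 5′ UTR, chr1:45925465-45925493, minus strand: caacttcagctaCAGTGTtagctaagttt
Tfrc, 3′ UTR, chr16:32631219-32631247, plus strand: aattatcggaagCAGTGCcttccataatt
Tfrc, 3′ UTR, chr16:32631598-32631626, plus strand: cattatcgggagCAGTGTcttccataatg
Tfrc, 3′ UTR, chr16:32631663-32631691, plus strand: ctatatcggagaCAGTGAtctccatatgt
Tfrc, 3′ UTR, chr16:32631710-32631738, plus strand: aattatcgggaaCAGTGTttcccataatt

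The ferritin hairpins shared their stem and the bases after it, and the 4 hairpins of *Tfrc* lay near each other in its 3′ UTR. The annotated transcripts with the match were 4 of 5 for *Fth1*, 1 of 2 for *Ftl1*, 1 of 4 for *Slc40a1* and 1 of 3 for *Tfrc*. The pattern occurred in the 5′ UTR of 0.226% of the 11046 genes with an annotated one, and in the 3′ UTR of 0.783% of 11367. The loop letters CAGTG alone occurred in 35.5% and 77.0% of them. *Tfr2*, *Hfe*, *Hfe2*, *Trf*, *Cp* and *Slc11a2* had no match, which says only that this pattern of stem and loop was not in the UTRs searched. A hairpin that departs from the pattern would have been missed.

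Each library held between 15746119 and 20523649 counts on genes. Levels are given as CPM, a gene's count as a share of its library after TMM scaling, which sets library sizes so that most genes are level between livers. The groups were compared with edgeR's quasi-likelihood test, and a gene was called where its adjusted p (Benjamini-Hochberg over 12147 tested genes) was under 0.05. A log2 fold change is GF+MEV minus GF+PBS, and errors of it are standard errors. Of all tested genes 7.64% were called (928), with 4.12% higher (500) and 3.52% lower (428) in GF+MEV livers. The share of calls that were higher was 53.9%, and it fell to 41.2% with upper-quartile scaling and 32.5% with library totals alone. These scalings moved the median log2 fold change of all genes to -0.05 and -0.08. GF+PBS replicates 1 and 3 were alike, as were 4 and 5, with root mean square differences of 0.28 on the log2 scale for both pairs against 0.31 to 0.40 for the other pairs of that group. GF+MEV replicate 2 had the lowest TMM factor, 0.89, against 0.98 to 1.04 in the other 9 libraries. A chi-square per gene between the counts of 2 livers was 134.8 to 176.1 for its pairs. For all other pairs within a group it was 6.4 to 25.0. Its root mean square differences were 0.36 to 0.38, against 0.32 to 0.37 for the other GF+MEV pairs.

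**Figure D1:**
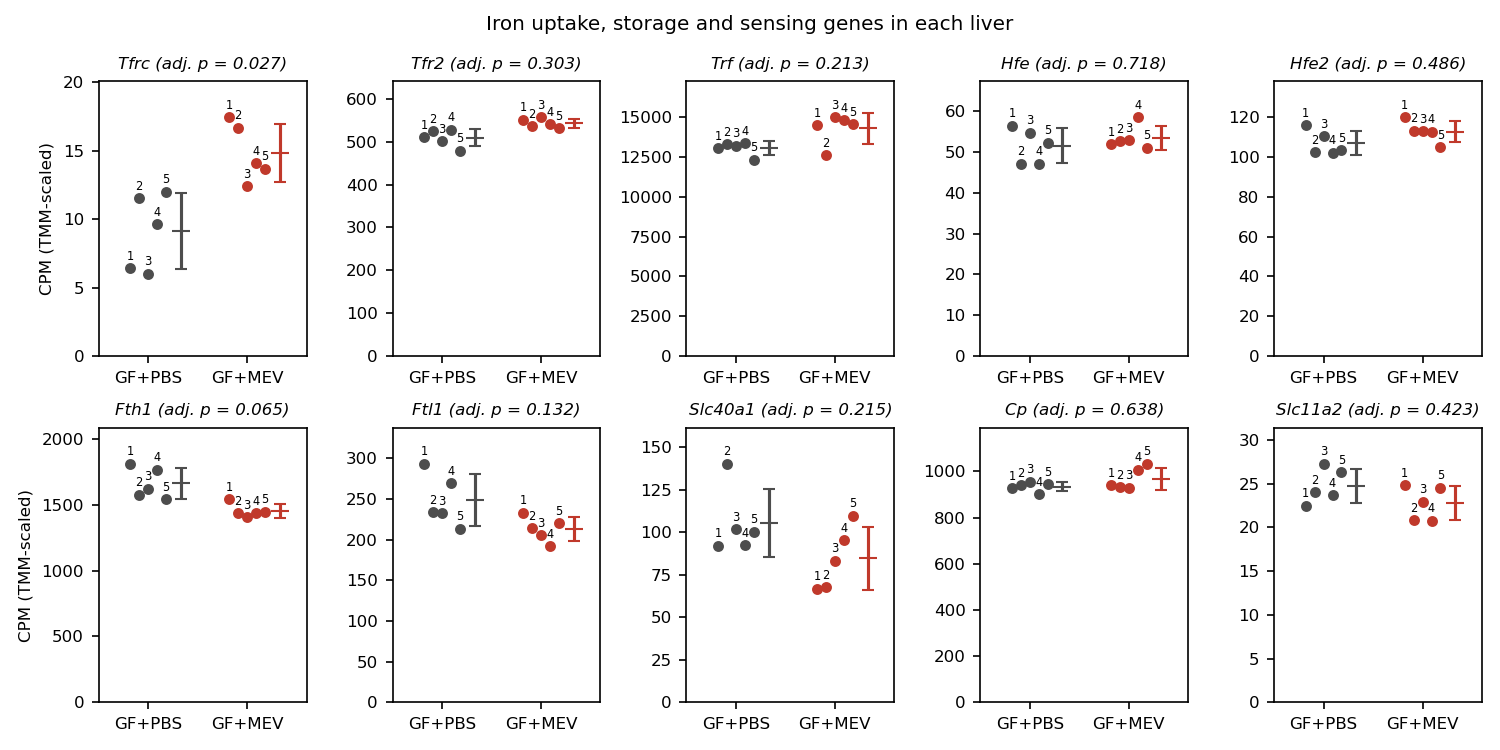
Level of each of the 10 genes in each liver (y axis, TMM-scaled CPM from 0) for GF+PBS (grey) and GF+MEV (red), with the replicate number above each point, the mean and SD as a bar beside the points, and the edgeR adjusted p in the title. *Tfrc* was between 12.4 and 17.4 CPM in GF+MEV livers and between 6.01 and 12.01 CPM in GF+PBS livers.

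*Trf* (chr9:103204001-103230444, minus strand) encodes transferrin, the plasma carrier of iron, which hepatocytes make. Its level was 14474, 12610, 14987, 14827 and 14569 CPM in GF+MEV replicates 1 to 5, and 13046, 13312, 13197, 13381 and 12334 CPM in GF+PBS replicates 1 to 5. GF+MEV replicate 2 stood below the other 4 of its group and within the GF+PBS range, while those 4 were above every GF+PBS liver. The log2 fold change was 0.13 ± 0.08 (edgeR adjusted p = 0.213). *Trf* shares 2108 of its 3320 exon bases on the same strand with Gm20425, a locus that was not in the table, and 77.3% of its 100-base windows were also found there, so its absolute level depends on how shared reads were counted.

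*Tfrc* (chr16:32608920-32632794, plus strand) encodes transferrin receptor 1, which brings transferrin-bound iron into most cells. In GF+MEV replicates 1 to 5 it was at 17.4, 16.7, 12.4, 14.1 and 13.7 CPM, from 213 to 286 counts each. In GF+PBS replicates 1 to 5 it was at 6.44, 11.5, 6.01, 9.65 and 12.01 CPM, from 101 to 206 counts. The groups did not overlap, with the closest 2 livers at 12.41 and 12.01 CPM, and GF+PBS replicates 1 and 3 were the lowest of the 10. The log2 fold change was 0.70 ± 0.18 (edgeR adjusted p = 0.027). *Tfrc* was thus 1 of 10 genes called and the 1 called higher, beside 7.64% of all tested genes called and 4.12% called higher. None of the 10 was called lower by edgeR, beside 3.52%, and 3 of the genes below 0 had an unadjusted p under 0.05.

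The call for *Tfrc* depended on single livers. With GF+PBS replicates 1 and 3 left out together, a setting chosen after the data were seen, the log2 fold change was 0.42 (edgeR adjusted p = 0.071). With the alike GF+PBS livers summed in pairs it was 0.67 (edgeR adjusted p = 0.060). It also missed the threshold without GF+MEV replicate 1 (0.64, edgeR adjusted p = 0.066), without GF+MEV replicate 2 (0.66, edgeR adjusted p = 0.055), without GF+PBS replicate 1 (0.60, edgeR adjusted p = 0.051), without GF+PBS replicate 3 (0.58, edgeR adjusted p = 0.055) and without GF+PBS replicate 4 (0.72, edgeR adjusted p = 0.052). In the other 13 of 20 alternatives it was called, and the direction was the same in all 20.

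**Figure D2:**
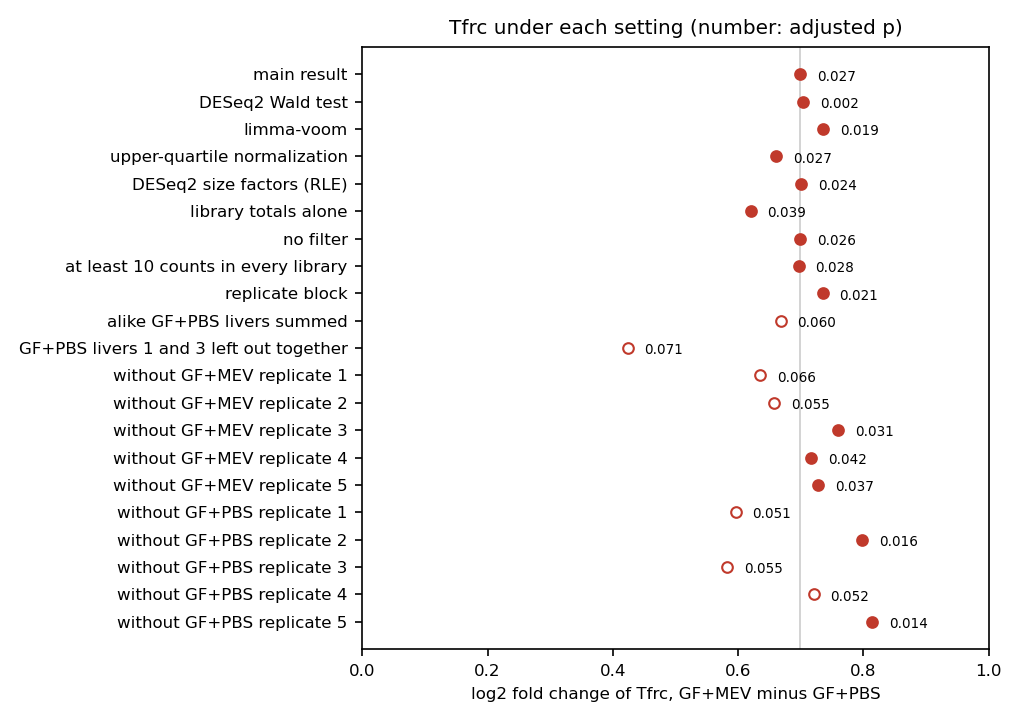
Log2 fold change of *Tfrc* (x axis, GF+MEV minus GF+PBS) under each test, scaling, filter and left-out liver (y axis), with the adjusted p as a number, filled points past the threshold, open points not, and the grey line at the main value. All values lay between 0.42 and 0.81, and 7 alternatives missed the threshold.

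*Tfr2* (chr5:137569840-137587481, plus strand) encodes transferrin receptor 2, which in hepatocytes senses transferrin-bound iron upstream of hepcidin. It was at 551.9, 537.0, 557.4, 542.0 and 531.6 CPM in GF+MEV livers, and at 511.5, 525.0, 501.6, 528.5 and 479.3 CPM in GF+PBS livers. The ranges were apart by a narrow margin, 531.6 against 528.5 CPM, and the log2 fold change of 0.10 ± 0.05 did not pass the test (edgeR adjusted p = 0.303). Set against each other per kilobase of exon, *Tfrc* made up 1.88% ± 0.27 (SD, n = 5) of the mRNA of both receptors in GF+MEV livers and 1.24% ± 0.39 (SD, n = 5) in GF+PBS livers. These shares ran from 1.537% to 2.168% and from 0.833% to 1.726%, so the groups overlapped on this measure, which was not tested.

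*Hfe* (chr13:23702034-23710854, minus strand) and *Hfe2* (chr3:96525172-96529210, plus strand) belong with *Tfr2* to the sensing of iron. HFE binds both transferrin receptors, and hemojuvelin, the product of *Hfe2*, is the co-receptor through which bone morphogenetic proteins raise hepcidin. *Hfe* was at 52.03, 52.78, 53.01, 58.56 and 51.08 CPM in GF+MEV livers and at 56.53, 47.18, 54.75, 47.15 and 52.30 CPM in GF+PBS livers. Its groups overlapped, with GF+MEV replicate 4 above and GF+PBS replicates 2 and 4 below all livers of the other group, and the difference was 0.05 ± 0.07 on the log2 scale (edgeR adjusted p = 0.718). *Hfe2* was at 119.9, 113.2, 112.8, 112.7 and 104.9 CPM against 116.0, 102.5, 110.3, 102.1 and 103.3 CPM, also overlapping, a difference of 0.08 ± 0.06 (edgeR adjusted p = 0.486). The sign for *Hfe* turned with library totals alone (-0.02).

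*Fth1* (chr19:9980598-9985098, plus strand) encodes the ferritin heavy chain, which oxidizes iron for storage. It was at 1541, 1434, 1404, 1435 and 1446 CPM in GF+MEV livers and at 1810, 1577, 1622, 1765 and 1544 CPM in GF+PBS livers. Every GF+MEV liver lay below every GF+PBS liver, but the closest 2, replicate 1 of GF+MEV and replicate 5 of GF+PBS, were at 1541 and 1544 CPM. The log2 fold change was -0.20 ± 0.06 (edgeR adjusted p = 0.065). It passed the threshold with DESeq2 (-0.20, adjusted p = 0.018), which called 9.89% of all genes it tested, with limma-voom (-0.19, adjusted p = 0.047), which called 7.79%, and in edgeR with upper-quartile scaling (-0.24, adjusted p = 0.039) and library totals alone (-0.27, adjusted p = 0.018). The other 16 alternatives did not call it.

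*Ftl1* (chr7:45457944-45459884, minus strand) encodes the ferritin light chain, which helps form the iron core. It was at 233.2, 213.9, 205.8, 192.5 and 220.3 CPM in GF+MEV livers and at 293.4, 233.6, 232.5, 269.5 and 213.8 CPM in GF+PBS livers. GF+PBS replicates 1 and 4 were the highest for both chains, and the groups overlapped for the light chain. The log2 fold change was -0.22 ± 0.08 (edgeR adjusted p = 0.132), and with library totals alone it was -0.30 (edgeR adjusted p = 0.039). Of the 100-base windows of *Ftl1*, 78.6% were also found in 6 other genes, among them the copy *Ftl1-ps1*, which had 421 counts over the 10 livers, so the light chain level is uncertain in a way that the heavy chain level (0.408% of windows shared) is not.

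Per kilobase, the ratio of *Fth1* to *Ftl1* was 2.553, 2.590, 2.635, 2.879 and 2.536 in GF+MEV livers (mean 2.64 ± 0.14, SD, n = 5) and 2.383, 2.608, 2.696, 2.530 and 2.790 in GF+PBS livers (mean 2.60 ± 0.16, SD, n = 5). The groups overlapped, and the means differed by less than the SD of either. No test was run on this ratio, and its size carries the uncertainty of the *Ftl1* level given above.

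*Slc40a1* (chr1:45908068-45926523, minus strand) encodes ferroportin, the iron exporter, present in hepatocytes and abundant in the Kupffer cells that recycle iron from red cells. It was at 66.9, 67.8, 83.2, 95.2 and 109.7 CPM in GF+MEV livers and at 92.1, 140.2, 101.8, 92.5 and 100.3 CPM in GF+PBS livers. GF+MEV replicates 1 to 3 were below every GF+PBS liver, while replicates 4 and 5 lay within their range, and GF+PBS replicate 2 was far above the rest. The log2 fold change was -0.32 ± 0.14 (edgeR adjusted p = 0.215), and without GF+PBS replicate 2 it was -0.19 (edgeR adjusted p = 0.408). That liver also had the highest summed globin mRNA (394.8 CPM, against 175.7 to 307.6 CPM in the other 9 livers) and the highest Kupffer cell markers of its group (492.9 CPM, against 349.0 to 465.5 CPM). In GF+MEV replicates 1 to 5 the Kupffer cell markers summed to 320.2, 313.1, 384, 563.5 and 311.9 CPM. Replicates 3 and 4 were above replicates 1 and 2 both for these markers and for *Slc40a1*. Replicate 5 was the highest of the group for *Slc40a1* (109.7 CPM) and the lowest for the markers. The part of blood or Kupffer cells in the *Slc40a1* value was not tested. In whole liver, fewer cells of a type and less RNA per cell cannot be told apart.

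*Cp* (chr3:19957054-20009145, plus strand) encodes ceruloplasmin, the plasma ferroxidase that loads exported iron onto transferrin, and *Slc11a2* (chr15:100387898-100425072, minus strand) encodes DMT1, which carries iron out of endosomes after transferrin uptake. *Cp* was at 940.7, 932.7, 929.8, 1007 and 1033 CPM in GF+MEV livers and at 927.9, 941.7, 955.6, 901.2 and 944.9 CPM in GF+PBS livers. Replicates 4 and 5 of GF+MEV were above all others, and the groups overlapped otherwise (log2 fold change 0.05 ± 0.05, edgeR adjusted p = 0.638). *Slc11a2* was at 24.8, 20.8, 22.9, 20.8 and 24.5 CPM against 22.5, 24.0, 27.3, 23.7 and 26.3 CPM, with 2 GF+MEV livers below the GF+PBS range (-0.12 ± 0.08, edgeR adjusted p = 0.423). The sign for *Cp* turned with library totals alone (-0.02). On the other strand, *Cp* shares 108 exon bases with *Hps3* and *Slc11a2* shares 402 with Gm5475.

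Counted over the 10 genes, the groups did not overlap for 3 (*Tfrc*, *Tfr2* and *Fth1*), beside 7.39% of all tested genes (898). An unadjusted p under 0.05 was reached by 5 (*Tfrc*, *Trf*, *Fth1*, *Ftl1* and *Slc40a1*), beside 21.2% of all tested genes (2572). The log2 fold change was above 0 for 6 and below 0 for 4, with a median of 0.05 against 0.00 over all tested genes. The 4 below 0 were both ferritin chains, *Slc40a1* and *Slc11a2*, and their sign was the same in all 20 alternatives.

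Laid beside the hairpins shown above, the log2 fold change was 0.70 for *Tfrc*, the gene with 3′ UTR matches, and -0.20, -0.22 and -0.32 for *Fth1*, *Ftl1* and *Slc40a1*, the genes with a 5′ UTR match. Of these 4 values, that of *Tfrc* passed the test. Outside the 10 genes, the heme synthesis enzyme *Alas2*, which is best known from red cell precursors and also matched in its 5′ UTR, differed by -0.01 ± 0.10 on the log2 scale (edgeR adjusted p = 0.984). The mRNAs of the proteins that read these hairpins did not pass the test. *Aco1* (iron regulatory protein 1) was at 255.9 to 289.8 CPM in GF+MEV livers and 250.1 to 306.5 CPM in GF+PBS livers (-0.03 ± 0.06, edgeR adjusted p = 0.821). *Ireb2* (iron regulatory protein 2) was at 82.1 to 113.6 CPM and 78.8 to 107.1 CPM (0.08 ± 0.10, edgeR adjusted p = 0.716), and *Fbxl5*, which targets *Ireb2* protein for degradation when iron is plentiful, at 24.91 to 29.03 CPM and 27.6 to 33.8 CPM (-0.14 ± 0.07, edgeR adjusted p = 0.289). These proteins are regulated after transcription, which RNA counts do not measure.

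**Figure D3:**
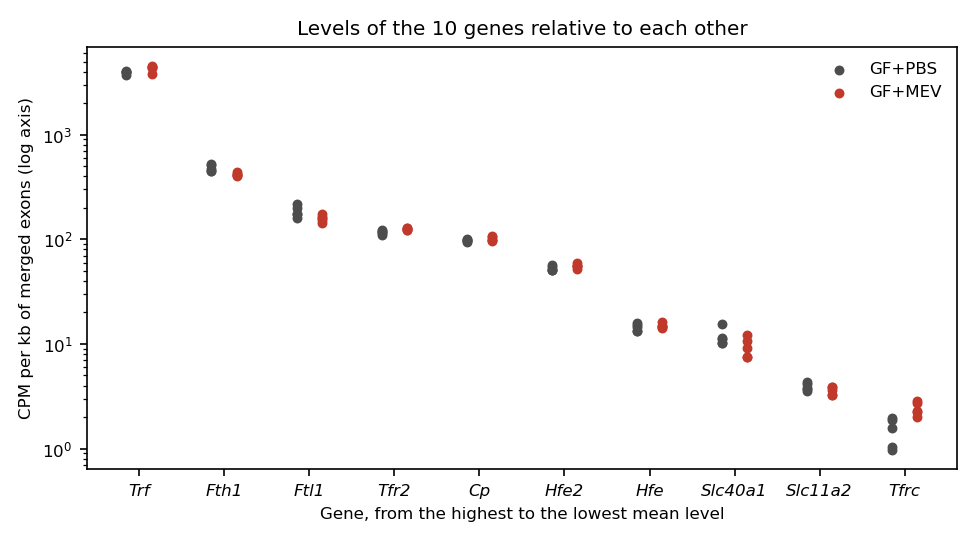
Level of each of the 10 genes per kilobase of merged exons (y axis, log scale, CPM per kb) in the 5 GF+PBS (grey) and 5 GF+MEV (red) livers, ordered from the highest to the lowest mean (x axis). *Trf* was the highest in every liver and *Tfrc* the lowest.

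Per kilobase of exon, the only scale on which different genes can be set against each other, the levels spanned from *Trf* at 4305 ± 290.0 CPM per kb in GF+MEV livers and 3932 ± 127.2 CPM per kb in GF+PBS livers (SD, n = 5) down to *Tfrc* at 2.40 ± 0.34 and 1.48 ± 0.45 CPM per kb. *Fth1* followed *Trf* at 418.6 ± 15.1 and 479.6 ± 33.9 CPM per kb, then *Ftl1* at 159.1 ± 11.4 and 185.5 ± 24.0 CPM per kb. The levels of *Trf* and *Ftl1* on this scale depend on how reads shared with other genes were counted. *Tfr2* stood at 125.5 ± 2.4 and 117.4 ± 4.6 CPM per kb, far above *Tfrc*, the receptor that most other cells use. *Cp* (101.2 and 97.7 CPM per kb) and *Hfe2* (55.6 and 52.7 CPM per kb) came next, followed by *Hfe* (14.98 and 14.44), *Slc40a1* (9.40 and 11.7) and *Slc11a2* (3.59 and 3.90). The order held in all 10 livers between every pair of neighbours except *Hfe* and *Slc40a1*, whose ranges overlapped and which stood in this order in 9 livers. With the longest annotated transcript as the length, 6 of the 10 genes kept their place, because *Cp* then passed *Tfr2* and *Slc40a1* passed *Hfe*.

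Beyond the 10 genes, 88 further genes of iron metabolism were read from the same fit in 8 lists, of which 78 were tested. Of these 78 genes, 6 were higher and 3 lower (11.5% called, beside 7.64% of all tested genes), with a median log2 fold change of -0.02. The called genes fell into the lists of importers and reductases, hepcidin control, ferritin turnover and heme handling. None was called by edgeR, DESeq2 or limma-voom among the 3 genes of the iron regulatory proteins (median -0.03, 0 at an unadjusted p under 0.05), the 4 tested IRE mRNAs outside the 10 genes (median 0.15, 1 at an unadjusted p under 0.05), the 5 ferroxidases and copper suppliers (median -0.09, 1 at an unadjusted p under 0.05) or the 22 genes of mitochondrial iron and iron-sulfur clusters (median -0.03, 1 at an unadjusted p under 0.05).

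**Figure D4:**
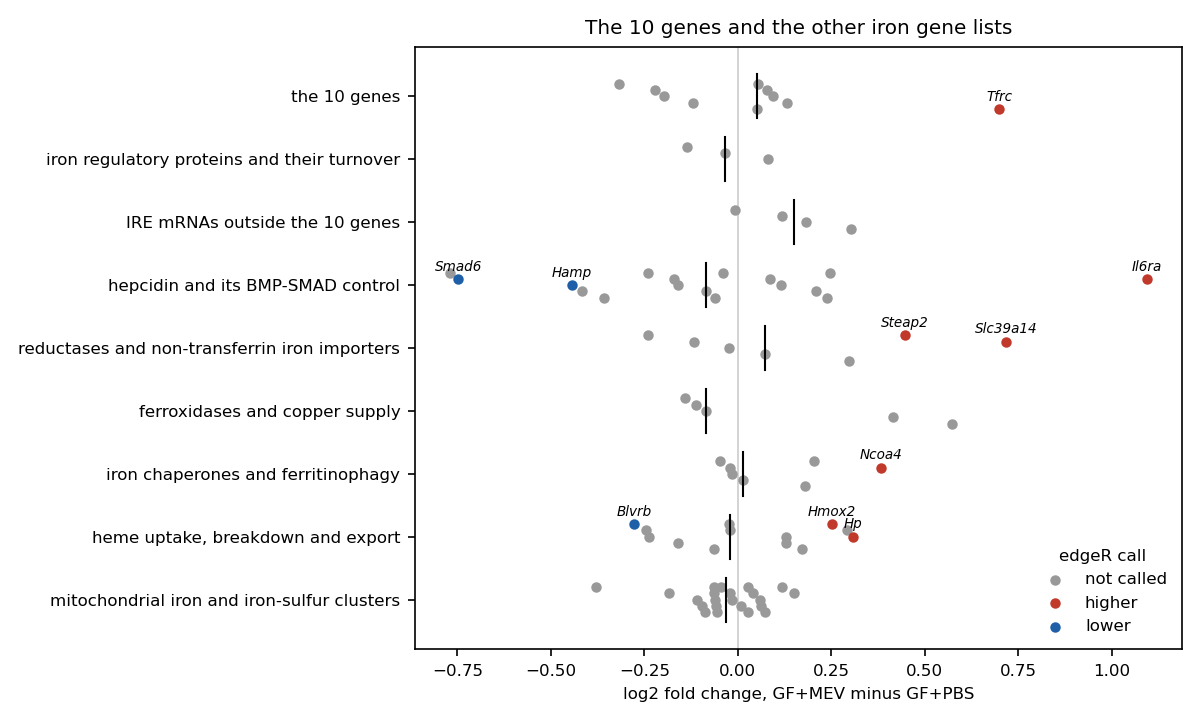
Log2 fold change (x axis, GF+MEV minus GF+PBS) of each tested gene in the 10 genes and in the 8 other iron lists (y axis), with called genes in red (higher) or blue (lower) and named, genes not called in grey, and a black bar at each list's median. The medians lay between -0.09 and 0.15, while single genes ran from -0.77 to 1.10.

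Import of iron that is not bound to transferrin runs in the liver through ZIP14, the product of *Slc39a14*, which loads hepatocytes when transferrin is saturated. *Slc39a14* was at 249.1, 240.3, 282.3, 294.5 and 263.4 CPM in GF+MEV livers and at 135.8, 202.9, 146.7, 148.8 and 174.3 CPM in GF+PBS livers. The groups did not overlap, and it rose by 0.72 ± 0.10 on the log2 scale (edgeR adjusted p = 0.00035), a call kept in all 20 alternatives. The metalloreductase *Steap2* rose by 0.45 ± 0.12 (edgeR adjusted p = 0.041) at a low level, 6.14 to 9.83 CPM against 5.38 to 6.37 CPM. It kept that call in 7 of 20 alternatives, and lost it (edgeR adjusted p 0.073 to 0.102) without any of GF+MEV replicates 1, 3 and 5 or GF+PBS replicates 1 to 4. *Steap3*, the reductase that prepares endosomal iron for DMT1, was at 20.9 to 28.0 CPM against 25.4 to 28.4 CPM (-0.12 ± 0.08, edgeR adjusted p = 0.422). Of the 7 tested genes of this list, 2 were thus higher and 0 lower (28.6% called, beside 7.64% of all tested genes), with a median of 0.07.

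*Hamp*, the gene of hepcidin, was at 442.2, 441.4, 519.5, 714.0 and 445.5 CPM in GF+MEV replicates 1 to 5 and at 721.9, 757.6, 645.6, 731.8 and 627.0 CPM in GF+PBS replicates 1 to 5. Replicate 4 of GF+MEV lay within the GF+PBS range, and the other 4 were below it. *Hamp* fell by 0.44 ± 0.12 on the log2 scale (edgeR adjusted p = 0.036). Without GF+MEV replicate 4 the log2 fold change was -0.59 (edgeR adjusted p = 0.00028). The call was lost when any of the other livers except GF+PBS replicate 5 was left out, with an edgeR adjusted p of 0.052 to 0.090, and with the alike GF+PBS livers summed or replicates 1 and 3 of them left out (0.097 and 0.074).

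Of the 17 tested genes of the list that holds *Hamp* and its control, 1 was higher and 2 lower, *Hamp* among them, with a median of -0.08. That is 17.6%, beside 7.64% of all tested genes, and 9 had an unadjusted edgeR p under 0.05, beside 21.2%. DESeq2 and limma-voom each called 4, beside 9.89% and 7.79% of all genes. DESeq2 added *Stat3* (edgeR 0.24, adjusted p = 0.053) and limma-voom added *Id1* (edgeR -0.77, adjusted p = 0.055). *Smad6*, an inhibitor and target of the bone morphogenetic protein pathway, fell by 0.75 ± 0.15 (edgeR adjusted p = 0.0052), at 4.97 to 7.50 CPM in GF+MEV livers and 8.29 to 12.9 CPM in GF+PBS livers. *Il6ra*, the receptor chain for interleukin-6, which raises hepcidin in inflammation, rose by 1.10 ± 0.13 (edgeR adjusted p = 7.8e-05), at 62.1 to 102.7 CPM against 31.1 to 45.3 CPM. The groups did not overlap for either gene, and both calls held in all 20 alternatives. *Il6ra* shares 242 exon bases with Gm42809 on the other strand.

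Ferritin is broken down with the help of *Ncoa4*, the receptor that carries it to lysosomes. *Ncoa4* rose by 0.38 ± 0.07 (edgeR adjusted p = 0.0033), at 89.9 to 106.2 CPM in GF+MEV livers and 62.7 to 78.3 CPM in GF+PBS livers, and kept the call in all 20 alternatives. It was the 1 gene called of 7 tested in its list (14.3%, beside 7.64% of all tested genes), whose median was 0.01.

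Among the 13 genes that handle heme, 2 were higher and 1 lower (23.1% called, beside 7.64% of all tested genes), with a median of -0.02. Haptoglobin *Hp*, which binds free hemoglobin, rose by 0.31 ± 0.07 (edgeR adjusted p = 0.011), at 3047 to 3677 CPM in GF+MEV livers and 2541 to 2968 CPM in GF+PBS livers. *Hmox2*, the constitutive heme oxygenase, rose by 0.25 ± 0.06 (edgeR adjusted p = 0.023), and *Blvrb*, a biliverdin reductase, fell by 0.28 ± 0.08 (edgeR adjusted p = 0.046), and these calls were kept in 12 and 9 of 20 alternatives. The call of *Hmox2* was lost (edgeR adjusted p 0.055 to 0.067) without GF+MEV replicate 5, GF+PBS replicate 2 or GF+PBS replicate 3, and that of *Blvrb* (0.061 to 0.119) without any of GF+MEV replicates 1, 3, 4 and 5 or GF+PBS replicates 1, 3 and 4. *Hmox2* shares 892 exon bases with *Cdip1* on the other strand, and whether counting used strand is not given in the sources used here. The inducible heme oxygenase *Hmox1* (8.69 to 15.6 CPM against 10.5 to 15.7 CPM, -0.24 ± 0.15, edgeR adjusted p = 0.411), hemopexin *Hpx* (0.13 ± 0.06, edgeR adjusted p = 0.191) and the heme and folate carrier *Slc46a1* (-0.02 ± 0.07, edgeR adjusted p = 0.912) did not pass the test.

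The livers carried the defining markers of hepatocytes, with *Alb* at 64586 to 80955 CPM in GF+MEV and 70779 to 83247 CPM in GF+PBS livers. Kupffer cell markers summed to 311.9 to 563.5 CPM in GF+MEV and 349.0 to 492.9 CPM in GF+PBS livers, with *Clec4f* at 69.7 to 100.9 and 78.7 to 98.1 CPM. Erythroid markers summed to 255.4 to 393.2 and 281.1 to 476.0 CPM, with *Hbb-bs* at 83.5 to 157.7 and 102.6 to 206.2 CPM and *Alas2* at 72.7 to 102.2 and 75.1 to 97.5 CPM, while *Slc4a1*, *Epb42*, *Gata1*, *Ahsp* and *Rhag* were not among the genes of the table. Sinusoidal endothelial markers summed to 170.4 to 271.5 and 202.8 to 272.7 CPM (*Stab2* 34.4 to 51.8 and 32.7 to 44.3 CPM), stellate cell markers to 172.7 to 243.9 and 199.8 to 211.8 CPM, biliary markers to 28.1 to 79.3 and 23.2 to 29.7 CPM, and lymphocyte markers to 7.11 to 14.6 and 11.6 to 15.3 CPM. Skeletal muscle markers summed to 248.3 to 341.8 CPM in GF+MEV livers, to 209.0 and 254.6 CPM in GF+PBS replicates 1 and 2, and to 550.0 to 765.1 CPM in GF+PBS replicates 3 to 5. Called by edgeR, with their log2 fold changes, were *Tat* (2.10), *Cps1* (0.38) and *Ass1* (0.36) of 10 hepatocyte markers, *Lyve1* (0.84) and *Clec4g* (-0.48) of 9 endothelial, *Krt19* (3.87) of 3 tested biliary, and *Cd79a* (-0.87) and *Cd79b* (-0.76) of 4 tested lymphocyte markers. In that order the lists had 30%, 22.2%, 33.3% and 50% called, beside 7.64% of all tested genes. The other tested biliary markers were not called and went in opposite directions, *Spp1* at 0.52 and *Sox9* at -0.98. Of the 13 Kupffer cell, 6 tested erythroid, 8 stellate and 5 tested muscle markers, 0 were called by edgeR, DESeq2 or limma-voom, and 2, 1, 1 and 2 had an unadjusted edgeR p under 0.05. Over all tested genes these 3 tools called 7.64%, 9.89% and 7.79%, and 21.2% had an unadjusted edgeR p under 0.05. The part of any of these cells in the *Tfrc* and ferritin values was not tested.

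The genes whose levels followed *Tfrc* most closely over the 10 livers, among 11833 genes averaging 1 CPM or more, were *Optn* (Pearson r = 0.95), *Elf2* (r = 0.95) and *Ppat* (r = 0.94). These correlations describe 10 points that include both groups and share their libraries. *Elf2* was itself called higher (0.38, edgeR adjusted p = 0.018), while *Optn* (0.15, edgeR adjusted p = 0.151) and *Ppat* (0.35, edgeR adjusted p = 0.065) were not.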

How the data were processed

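Liver RNA of 10 GF mice, 5 per group, was sequenced with 1 library per liver. The authors deposited raw read counts per Ensembl gene without normalization. Per their methods and processing notes, bcl2fastq 2.17 made the reads, STAR 2.7.3a aligned them to GRCm38, HTSeq counted them, and genes with fewer than 20 counts across samples were removed. The strand setting and the treatment of reads shared between genes are not given in the sources used here. The table held 5 further columns that match none of the described samples, which were not used. Replicate numbers come from the sample titles, and p-values measure the spread between these livers.

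Symbols, exon lengths, positions and UTRs came from the GENCODE annotation of GRCm38. Counts were tested with edgeR 4.0.16 (quasi-likelihood, under R 4.3.3), with TMM scaling, at least 20 counts summed over the 10 libraries, the treatment group as the only term and Benjamini-Hochberg adjustment at 0.05. Standard errors came from limma 3.58.1 on log2 CPM with a prior count of 2. Alternatives were DESeq2 1.42.0, limma-voom, other scalings and filters, a replicate block, alike livers summed, and livers left out. The authors themselves used DESeq2 to compare the groups. The statistical steps were tested on simulated data first. The 10 genes, the other lists and the alternatives were chosen with earlier results of these data known, and the settings without GF+PBS replicates 1 and 3 after the data were seen.

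Genes named outside the 10 were those past the threshold in each iron or marker list, a set of key iron genes and defining markers whatever their p, and the 3 genes most correlated with *Tfrc*. Stretches shared between genes were counted as identical windows of 100 bases in annotated transcripts. Protein sequences were not used here.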

Additional observations from a re-analysis of the deposited data

Results flagged for a closer look

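In each group of 5 livers, the gap between the highest or lowest liver and its neighbour was compared with the whole range, and a ratio above 0.71 marked a liver as apart. Of 52 groups examined, 5 had such a liver, and chance alone gives about 2.6. *Trf* was at 12610 CPM in GF+MEV replicate 2 and at 14474 to 14987 CPM in the other 4, and that library also had the lowest TMM factor (0.89). *Slc40a1* was at 140.2 CPM in GF+PBS replicate 2 and at 92.1 to 101.8 CPM in the others of its group, and that liver also had the highest summed globin mRNA (394.8 CPM). The other 3 were all in GF+MEV replicate 4, where *Hfe* was at 58.56 CPM (51.08 to 53.01 CPM in the others of the group), *Hamp* at 714.0 CPM (441.4 to 519.5 CPM) and *Hmox1* at 15.61 CPM (8.69 to 10.5 CPM). GF+MEV replicate 4 also had the highest summed Kupffer cell markers of all 10 livers (563.5 CPM) and the highest level of the macrophage receptor *Marco*, 21.2 CPM against a median of 1.79 CPM in its group. The part of these cells in the 3 values was not tested.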

How the results depend on the processing

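The number of the 10 genes called, 1 in the main test, was 2 with DESeq2, limma-voom or upper-quartile scaling, 3 with library totals alone, 0 with alike GF+PBS livers summed, 0 with GF+PBS replicates 1 and 3 left out, and 0 to 1 with single livers left out (0 without GF+MEV replicate 1 or 2 or GF+PBS replicate 1, 3 or 4). In the whole table, 928 of 12147 genes were called in the main test. The number was 1201 with DESeq2, 946 with limma-voom, 1040 with upper-quartile scaling and 1023 with library totals alone. It fell to 561 with alike livers summed, a fit on fewer samples, and to 768 with GF+PBS replicates 1 and 3 left out. With single livers left out it ran from 696 to 926. Other iron genes called fell from 9 to 5 with alike livers summed, and ran from 5 (without GF+PBS replicate 3) to 9 with single livers left out. Of the other iron genes, *Slc39a14*, *Il6ra*, *Hp*, *Smad6* and *Ncoa4* were called in all 20 alternatives, while *Hamp* lost its call in 10, *Hmox2* in 8, *Blvrb* in 11 and *Steap2* in 13. The sign turned for uncalled genes only: *Hfe* (-0.021) and *Cp* (-0.023) with library totals alone, *Aco1* (0.003) without GF+PBS replicate 4 (-0.070 to 0.003 with single livers left out), and *Slc46a1* with alike livers summed (0.004), with GF+PBS replicates 1 and 3 left out (0.048), without GF+MEV replicate 5 (0.012) and without GF+PBS replicate 1 (0.030, with single livers left out -0.049 to 0.030). Without division by length the ferritin ratio was 6.83 in GF+MEV and 6.74 in GF+PBS livers and the *Tfrc* share 2.66% and 1.76%. With single livers left out the ratio ran from 2.58 to 2.66 and from 2.55 to 2.66, and the share from 1.81% to 1.97% and from 1.12% to 1.35%. With the longest transcript as length, 6 genes kept their place in the order of levels. The causes of these changes were not tested.

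Replicate numbers are shared between the groups, and the sources used here do not say whether they pair the livers. The 5 correlations of same-numbered livers ran from -0.19 to 0.17, and 2 of 5 GF+MEV livers correlated best with their own number. So few livers cannot exclude a pairing, and the main test used none. With the replicate block 792 genes were called in the whole table, 1 of the 10 genes (*Tfrc*, log2 fold change 0.73) and 7 of the other iron genes.

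At 101 to 286 counts per liver, *Tfrc* was the least deeply counted of the 10 genes.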
